A study of Rattus norvegicus with 16 samples.

Results

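Aggrecan (Acan), versican (Vcan), hyaluronan and proteoglycan link proteins 1 and 3 (Hapln1, Hapln3), hyaluronan synthase 2 (Has2) and the hyaluronan receptor Cd44 were followed through single-cell RNA sequencing of rat intervertebral discs. These 6 genes were taken by name from the gene columns and were listed in all 16 libraries, among 14930 genes listed in any group of libraries and 13596 listed in every group. Male Sprague-Dawley rats, 8 weeks old at surgery, received a single stab with a 27G needle in each of the L4-5 and L5-6 discs. The punctured discs (LDP, lumbar disc puncture) and the unpunctured L2-3 and L3-4 discs of the same rat (CON) were taken 2 weeks later from rats 1 to 4 and 8 weeks later from rats 5 to 8. The 2 discs of a kind were pooled to 1 library per rat, which gave 4 libraries in each of 4 groups. CON discs came from operated animals and from higher spinal levels than LDP discs, so puncture and disc level cannot be told apart, and the 2 times hold different rats of different age.

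Aggrecan is the bulky, chondroitin sulfate-bearing proteoglycan that holds water in cartilage and in the disc, and versican is its less densely glycosylated relative. Both bind hyaluronan through their N-terminal domain, link proteins lock that bond, hyaluronan synthases spin the hyaluronan chain at the cell membrane, and CD44 tethers it to the cell. The nucleus pulposus (NP), the gel-like core of the disc, is rich in this aggregate, and the fibrous annulus around it, with an inner (IAF) and an outer (OAF) zone, holds more collagen.

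Across the 16 libraries the files held 149272 cells, 2221 to 15918 per library, with totals of unique molecular identifiers (UMIs) between 17.8 and 85.0 times 1000000. Cells of the intervertebral disc (IVD) class, as the authors named it, made up 59.1 to 96.7% of a library with median depths between 4226 and 9889 UMIs. The myeloid and endothelial names were held against a marker each in CON libraries at 2 weeks. Both markers were among those the authors named the classes by, so the values describe the naming and do not test it. There the myeloid class had a mean of 5699 CPM (UMI counts per 1000000) of Lyz2 and the IVD class 5.16. The endothelial class had 1168 CPM of Cdh5 and the IVD class 16.9. In CON libraries at 8 weeks the myeloid name was less clear, with a UMI of Lyz2 in 36.7 to 90.3% of its cells. No 2 libraries shared more than 0.720% of the barcodes of the smaller one. The library of LDP rat 4 stood apart at 2 weeks, with a median ribosomal share of 16.4% in IVD cells where the other 3 LDP libraries had 11 to 12.3%, and it held the lowest or highest LDP value of every member except Has2 at that time. The level of a gene below is the mean CPM over the cells of a library, and a fold change is on the log2(CPM + 1) scale.

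By limma, versican alone of the 6 genes differed past the threshold in IVD cells between punctured and unpunctured discs over both times. DESeq2, which called more genes than limma in this comparison, also called Acan and Hapln3, as given with these genes. Versican was lower after puncture in 8 of 8 rats. At 2 weeks the CON libraries of rats 1 to 4 had 798, 857, 903 and 840 CPM of Vcan and the LDP libraries 693, 623, 486 and 312 CPM. Every LDP library lay below every CON library, and the group means were 849 ± 43.5 and 528.5 ± 168 CPM (SD, n = 4). At 8 weeks the CON libraries of rats 5 to 8 had 299, 369.5, 631 and 723 CPM and the LDP libraries 186, 261, 371 and 422 CPM. Here the groups overlapped, because the unpunctured discs themselves ranged widely, yet within each rat the punctured discs were the lower ones, as was found for 26.3% of genes at this time. Over all tested genes, 4.42% had every LDP library below every CON library at 2 weeks, and 8.30% were lower after puncture in all 8 rats.

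In the limma fit with the rat as a block, Vcan differed by -0.71 on the log2 scale over both times (SE 0.12, 95% interval -0.98 to -0.44), which is 0.610 times the CON level, with a Benjamini-Hochberg adjusted p of 0.015. That made 1 of the 6 genes called, where 7.80% of 11150 genes were called and 5.72% were called lower. The median log2 difference of all genes in this fit was -0.12. Of all called genes 232 were higher and 638 lower in this fit, against 419 higher and 326 lower by edgeR with its own scaling, under which Vcan was called too. The result for Vcan was past the threshold in all 15 alternatives run, with adjusted p from 3.21e-05 to 0.0491. Within a single time the call was not reached: limma gave -0.75 at 2 weeks (SE 0.17, adjusted p = 0.152, where 0.179% of genes were called and 0.0448% called lower) and -0.68 at 8 weeks (SE 0.17, adjusted p = 0.0982, where 0.269% were called). DESeq2, which called more genes than limma at each time, called Vcan at both times. The effect at 8 weeks minus that at 2 weeks was 0.07 (95% interval -0.47 to 0.61, limma adjusted p = 1); by that test 0 genes differed between the times, with 186 at an unadjusted p under 0.05 and 13 called by DESeq2.

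Other measures moved with the lower Vcan level. The summed level of 6 disc reference genes was likewise lower after puncture in 8 of 8 rats, with medians of 22120 CPM in CON and 19340 CPM in LDP at 2 weeks and of 10120 and 7763 CPM at 8 weeks, though the ranges of the groups overlapped. Col2a1 and Comp made up most of that sum, with means of 10430 and 8240 CPM in CON at 2 weeks. By limma at 2 weeks Sox9 (-0.48), Col2a1 (-0.21), Fmod (-0.12) and Comp (-0.11) had negative estimates. Matn3 (0.90) and Col9a1 (0.63) had positive ones, and none was called. The median ribosomal share of IVD cells was 10.3 to 13.0% in CON and 11 to 16.4% in LDP libraries at 2 weeks, and 13.2 to 14.5% and 14.7 to 17.9% at 8 weeks. The summed level of 7 outer annulus genes was lower after puncture in 7 of 8 rats, with a range of 8765 to 15220 CPM in CON and 6736 to 13590 CPM in LDP at 2 weeks and of 2401 to 4333 and 1021 to 2765 CPM at 8 weeks. Col1a1 was the largest part of it, with a mean of 5617 CPM over all libraries. Tnmd alone of these genes had a positive limma estimate at 2 weeks (0.14). The 6 endothelial markers summed to 23.4 to 180 CPM in CON and 4.72 to 18.3 CPM in LDP IVD cells at 2 weeks, and to 10.9 to 18.03 and 5.26 to 13.7 CPM at 8 weeks. Of 7 genes known to be induced by tissue dissociation, the summed level was lower after puncture in 6 of 8 rats, with a range of 1923 to 6578 CPM in CON and 1452 to 1863 CPM in LDP at 2 weeks, where the groups did not overlap, and of 2176 to 3383 and 1242 to 3394 CPM at 8 weeks, where they did. The part of these measures in the Vcan result was not tested. Within NP cells at 2 weeks Vcan was lower after puncture in 4 of 4 rats, and other measures moved there too. The 5 tested endothelial markers all had negative estimates in NP cells (median -1.375, lowest Plvap at -1.80), as did the 7 dissociation genes (median -0.757, with Egr1 at -1.63 and Atf3 at -0.76), and 6 of 7 outer annulus genes (median -0.076, lowest Igfbp5 at -1.115), beside a median of -0.028 over all genes. None of these genes was called in NP cells.

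**Figure D1:**
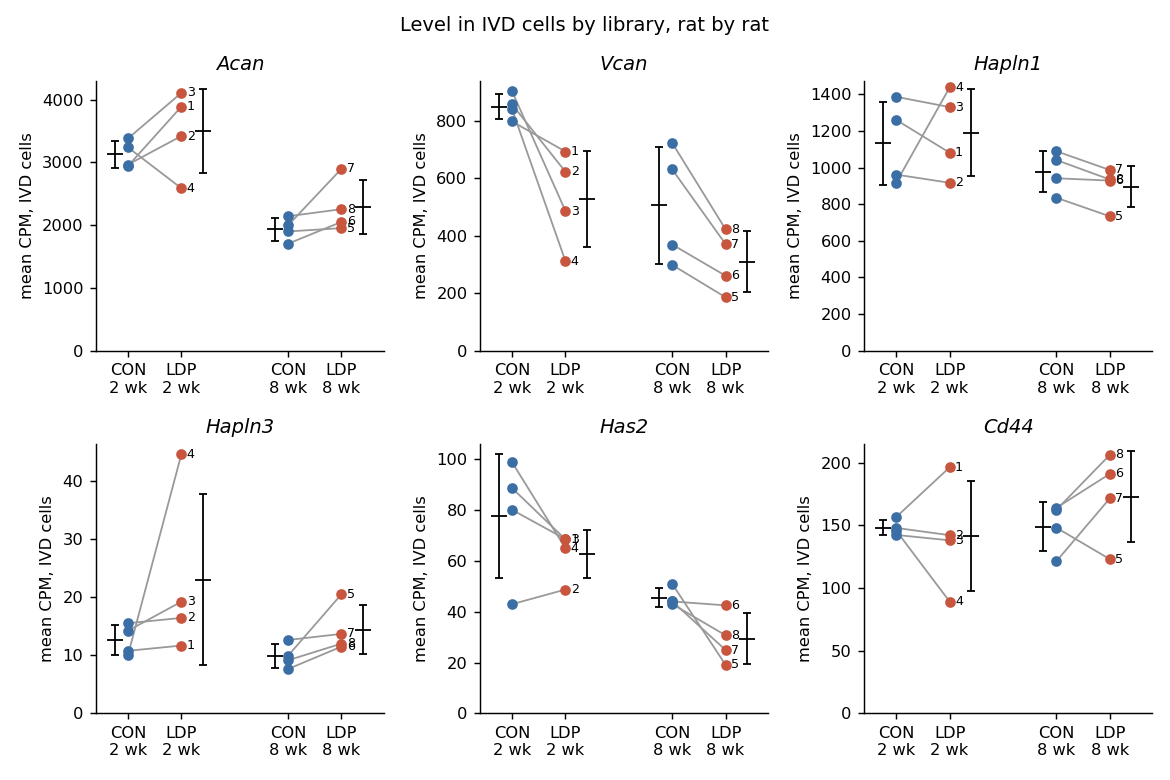
Mean CPM of each of the 6 genes in IVD cells; each point is 1 library, lines join the paired libraries of each rat, and bars mark group means. All 8 Vcan lines fall, from 798 to 903 CPM to 312 to 693 CPM at 2 weeks, while 7 of 8 Acan lines climb and all 8 Hapln3 lines climb from levels of 7.65 to 15.5 CPM.

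Aggrecan, the main proteoglycan of the disc, did not follow versican. Its level in IVD cells at 2 weeks was 2942, 2965, 3381 and 3240 CPM in CON and 3888, 3420, 4107 and 2589 CPM in LDP. Of the 4 rats, 3 had more Acan after puncture and 1, rat 4, had less, so the groups overlapped. At 8 weeks the values were 1900, 1705, 1997 and 2142 CPM in CON and 1953, 2052, 2898 and 2255 CPM in LDP, with more after puncture in each rat, as 7.72% of genes had. None of the 6 genes had every LDP library above every CON library, where 2.74% of genes did at 2 weeks and 2.52% at 8 weeks. The limma log2 difference was 0.14 at 2 weeks (adjusted p = 0.665), 0.23 at 8 weeks (adjusted p = 0.333) and 0.19 over both (95% interval -0.02 to 0.39, adjusted p = 0.203). DESeq2 put the mean of both times past the threshold (adjusted p = 0.0156) and edgeR did not (adjusted p = 0.079).

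Because the 2 genes differed in direction, versican was also set against aggrecan within each library, a ratio that no scaling of the library can move; it was chosen after the values had been seen and is given as a description with no test. Per 100 CPM of Acan, IVD cells of CON rats 1 to 4 had 27.1, 28.9, 26.7 and 25.9 CPM of Vcan, and those of LDP 17.8, 18.2, 11.8 and 12.04. The 2 groups did not overlap at this time. At 8 weeks the ratio was 15.7, 21.7, 31.6 and 33.8 in CON and 9.52, 12.7, 12.8 and 18.7 in LDP. The log2 ratio differed by -0.89 ± 0.29 at 2 weeks (SD over n = 4 rats) and by -0.91 ± 0.27 at 8 weeks. Among all cells of the library the differences were -0.87 and -0.86.

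**Figure D2:**
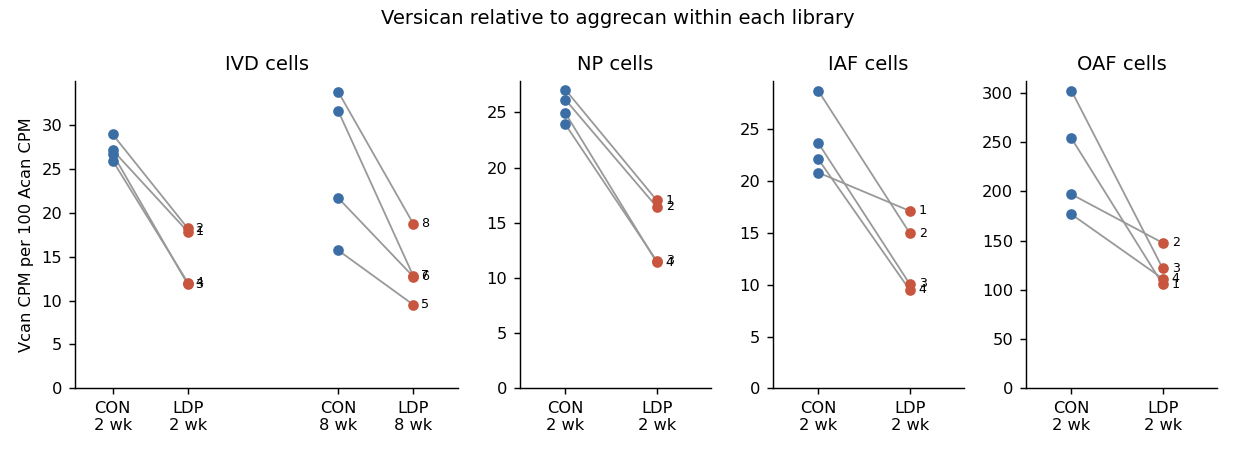
CPM of Vcan per 100 CPM of Acan in each library, in IVD cells at 2 and 8 weeks and in NP, IAF and OAF cells at 2 weeks; lines join the 2 libraries of a rat. In IVD cells the 4 CON libraries at 2 weeks sit between 25.9 and 28.9 and the LDP libraries between 11.8 and 18.2.

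The 2 link protein genes had different directions. Hapln1, the cartilage link protein, had 1260, 961, 1386 and 918 CPM in CON and 1081, 917, 1330 and 1437 CPM in LDP IVD cells at 2 weeks, and 835, 941, 1089 and 1041 against 734, 929, 986.5 and 935 CPM at 8 weeks. It was lower after puncture in 7 of 8 rats, by at most 0.22 on the log2 scale, and higher in rat 4 by 0.65. The groups overlapped at both times, and the limma difference over both was -0.03 (95% interval -0.24 to 0.19, adjusted p = 0.871); it turned to 0.05 by edgeR and 0.07 by DESeq2. Hapln3, a link protein known from blood vessel walls, had 10.8, 15.5, 14.2 and 10.0 CPM in CON and 11.7, 16.4, 19.2 and 44.6 CPM in LDP at 2 weeks. At 8 weeks it had 9.94, 7.65, 12.7 and 9.16 CPM in CON and 20.5, 11.5, 13.7 and 12.02 CPM in LDP. Every rat had more Hapln3 after puncture, as did 3.59% of all genes, but the sizes ranged from 0.08 to 2.05 on the log2 scale and rat 4 gave the largest. Over both times limma gave 0.58 (SE 0.21, 95% interval 0.12 to 1.03, adjusted p = 0.0969), DESeq2 an adjusted p of 0.0208, and limma without rat 4 a difference of 0.35 (adjusted p = 0.0857).

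Has2 encodes the synthase that makes long hyaluronan chains. In CON IVD cells it had 80.2, 43.0, 88.7 and 98.9 CPM at 2 weeks and in LDP 68.6, 48.8, 68.5 and 65.0 CPM, with lower values after puncture in 3 of 4 rats and overlapping groups. At 8 weeks it had 51.0, 44.1, 44.2 and 43.1 CPM in CON and 19.1, 42.6, 24.96 and 30.8 CPM in LDP. All 4 LDP libraries then lay below all 4 CON libraries, as they did for 11.4% of all genes at that time. The limma differences were -0.25 at 2 weeks (adjusted p = 0.612), -0.67 at 8 weeks (adjusted p = 0.132) and -0.46 over both (SE 0.14, 95% interval -0.78 to -0.15, adjusted p = 0.068), and no alternative put the mean of both past the threshold.

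Cd44, the main cell surface receptor for hyaluronan, showed no common direction in IVD cells. It had 157, 148, 142 and 146 CPM in CON and 196, 142, 138 and 89.2 CPM in LDP at 2 weeks. At 8 weeks it had 148, 164, 121 and 162 CPM in CON and 123, 191, 171 and 206 CPM in LDP. More was found after puncture in 4 rats and less in 4, and the limma difference over both times was 0.04 (95% interval -0.23 to 0.31, adjusted p = 0.846).

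**Figure D3:**
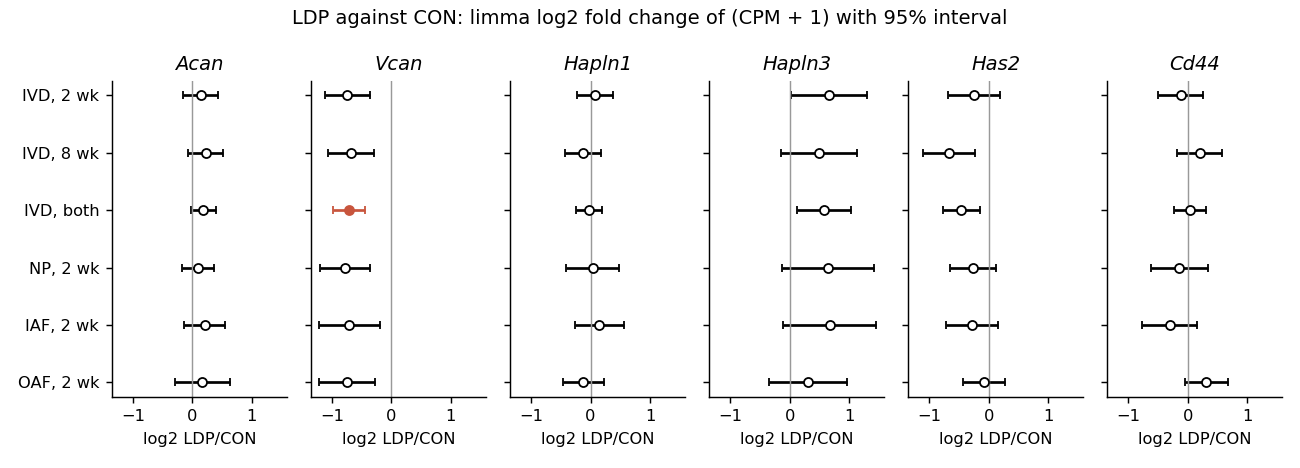
Limma log2 difference of LDP against CON for each gene (horizontal axis, with its 95% interval) in IVD cells at 2 weeks, at 8 weeks and over both times, and in NP, IAF and OAF cells at 2 weeks. Vcan lies between -0.79 and -0.68 in all 6 rows, and the Acan intervals include 0 in each.

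The share of IVD cells with at least 1 UMI of a gene was compared after each cell had been thinned to 1000 UMIs, since deeper cells show more genes; cells with fewer were left out, 0 to 273 per library. For Vcan the share was 44.2 ± 2.85% in CON and 31.3 ± 7.82% in LDP at 2 weeks (SD, n = 4, exact permutation p = 0.02857), and 28.2 ± 9.15% and 20.2 ± 5.63% at 8 weeks (n = 4, exact permutation p = 0.2). These permutations do not use the pairing by rat. Within rats the share was lower after puncture in 4 of 4 at each time, for which exact sign flips give p = 0.125, the smallest that 4 rats allow. Unthinned, the shares at 2 weeks were 75.7 and 65.5% (n = 4, exact permutation p = 0.08571). For Has2 the share at 8 weeks was 4.17 ± 0.34% in CON and 2.72 ± 0.88% in LDP (n = 4, exact permutation p = 0.02857; unthinned 19.5 and 15.0%, exact permutation p = 0.1429). The Acan share at 8 weeks was 72.1 ± 4.66 and 79.4 ± 2.98% (n = 4, exact permutation p = 0.05714; unthinned 92.4 and 96.8%, exact permutation p = 0.02857). These p-values come from 12 comparisons and are not adjusted, and the other 8 ranged upward from 0.08571. Endothelial cells, which are not known to make aggrecan, had a UMI of Acan in 17.96 ± 8.69% of CON cells at 2 weeks at the same 1000 UMIs per cell, beside 82.6 ± 3.17% of IVD cells. For Vcan the shares at 2 weeks were 7.11 ± 2.89% of CON and 5.20 ± 1.70% of LDP endothelial cells, and 3.33 ± 1.21% of LDP lymphoid cells (n = 3). For Has2 at 8 weeks the share was 0.0967 ± 0.193% of CON myeloid cells but 1.27 ± 1.23% of LDP endothelial cells, beside the 2.72 ± 0.88% of LDP IVD cells, and in 1 library the endothelial level of Has2 was 112% of the IVD level, so the low Has2 share in LDP IVD cells is not clear of that in another class.

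The NP, IAF and OAF subclusters of IVD cells were drawn by the authors at 2 weeks, separately for CON and LDP, and Acan was among the markers that named them, so differences between them are a description with no test. Acan and Hapln1 shared a steep fall toward the outer annulus. The Hapln1 level of CON libraries was 1326 ± 312 CPM for NP, 1163 ± 232 CPM for IAF and 277.5 ± 82.5 CPM for OAF cells (SD, n = 4), and within each library the NP level exceeded the OAF level by a mean of 2.28 on the log2 scale, against 3.41 for Acan. NP and IAF differed by 0.18 for Hapln1 and 0.19 for Acan, with NP higher in all 4 libraries. Hapln3 was lower in OAF as well, with 13.2 ± 3.52 CPM (NP), 14.6 ± 2.85 CPM (IAF) and 5.05 ± 2.11 CPM (OAF), and its NP and IAF levels lay within their spread.

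Versican, Has2 and Cd44 showed no such gradient in CON libraries. In CON libraries Vcan had 950 ± 58.7 CPM (NP), 772.5 ± 90.6 CPM (IAF) and 823 ± 246 CPM (OAF), and the OAF values spanned both other zones. Has2 had 80.1 ± 27.1, 76.2 ± 22.6 and 72.4 ± 16.9 CPM, and Cd44 147.5 ± 9.14, 155 ± 13.3 and 136 ± 15.0 CPM, in the same order. Against Acan, versican therefore stood at very different ratios. The log2 ratio of Vcan to Acan was on average -1.97 for NP, -2.08 for IAF and 1.19 for OAF cells in CON. The Acan level of these OAF cells, 353 ± 49.8 CPM, lay near those of CON cells of no class (386 ± 210 CPM) and myeloid cells (275 ± 62.1 CPM). The OAF ratio is thus not clear of the Acan level in other classes. NP cells held more UMIs than IAF cells in every library. CPM divides out the depth of a cell but not a split of cells by depth. In every library all NP cells held at least 2000 UMIs, against 3989 of 6577 IAF cells in CON rat 3 and 5241 of 5417 in LDP rat 3. The part of depth in the differences between NP and IAF cells was not tested.

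Versican was lower after puncture in 4 of 4 rats within NP cells and in 3 of 4 within IAF and OAF cells. In IVD cells at 2 weeks 14.1% of all genes were lower in every rat, and 4.42% had every LDP library below every CON library. Such shares were not counted within NP, IAF or OAF cells. In NP cells the CON libraries had 950, 898, 1032 and 918.5 CPM and the LDP libraries 710, 668, 528 and 365 CPM, with no overlap. In IAF cells they had 687, 899, 768 and 736 CPM and 691, 595, 445 and 266 CPM, and rat 1 was level. Markers of other cells had negative estimates in IAF cells, namely 7 of 7 outer annulus genes (median -2.045), 6 of 6 endothelial (-2.454) and 5 of 5 pericyte and smooth muscle markers (-1.429), beside -0.145 over all genes; none was called, and their part in the IAF values was not tested. In OAF cells they had 822, 591, 1164 and 716.5 CPM and 555, 601, 535 and 288 CPM; rat 2 was level there. The limma differences were -0.79 for NP (adjusted p = 0.324), -0.71 for IAF (adjusted p = 0.282) and -0.74 for OAF cells (adjusted p = 0.189), and none was past the threshold. By limma 0 genes were called in NP and 0 in IAF cells, with 1078 and 1477 at an unadjusted p under 0.05, 1 in each by edgeR, and 208 and 200 by DESeq2; in OAF cells 1.39% of 11694 genes were called and 0.128% called lower. The log2 ratio of Vcan to Acan differed by -0.88 for NP, -0.92 for IAF and -0.91 for OAF cells, again as a description. The limit given above on the Acan level of OAF cells applies here too.

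**Figure D4:**
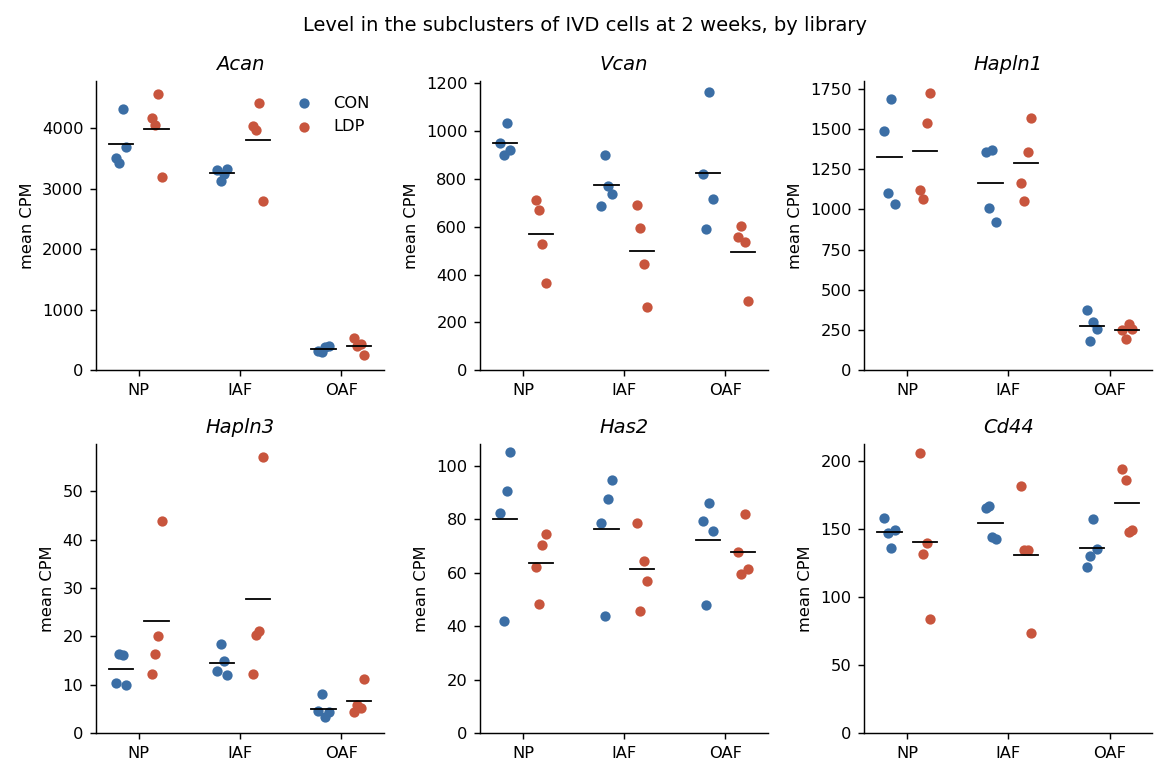
Mean CPM of each gene in NP, IAF and OAF cells at 2 weeks; each point is 1 CON or LDP library. Acan and Hapln1 drop from NP and IAF to OAF cells (Hapln1 from 1326 and 1163 to 277.5 CPM in CON), whereas Vcan, Has2 and Cd44 show no such drop; Cd44 is lower in IAF than in OAF cells in 4 of 4 LDP libraries.

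The other members were not called in any zone after puncture. Limma gave Acan 0.09 for NP, 0.21 for IAF and 0.17 for OAF cells, and Hapln1 0.04, 0.15 and -0.12. Cd44 was at 122, 130, 157 and 135 CPM in CON and 194, 186, 148 and 149 CPM in LDP OAF cells (0.31, adjusted p = 0.513), whereas it was -0.14 in NP and -0.30 in IAF cells. In LDP its level in IAF was below that in OAF cells in 4 of 4 libraries, by a mean of -0.43 on the log2 scale. Hapln3 was at 43.9 and 57.2 CPM in the NP and IAF cells of LDP rat 4 and at 12.2 to 21.2 CPM in those of the other 3 LDP libraries.

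The authors named the IVD class by Acan and Col2a1 among other markers, so the low levels of these genes in the other classes follow from the naming and are a description with no test. The endothelial, myeloid and lymphoid classes had a median of 5.66, 6.59 and 4.44% of the IVD level of Acan in the same library, and 6.14, 4.86 and 4.81% of that of Hapln1. Col2a1, the cartilage collagen gene, stood at 7.42, 7.45 and 4.49% in these classes, close to the shares of Acan and Hapln1. In CON at 2 weeks Acan stood at 3736 ± 399 CPM in NP and 3256 ± 86.9 CPM in IAF cells. Below these the order ran from 386 ± 210 CPM in cells of no class to 353 ± 49.8 in OAF, 275 ± 62.1 in myeloid and 226 ± 119 in endothelial cells (SD, n = 4). Lymphoid cells had 107 CPM, in a single library with 91 cells. Neighbours in the order below NP and IAF lay within their spread, apart from the lone library. Has2 and Hapln3 had medians of 0% of the IVD level in myeloid cells. Cells in no class had 108 ± 41.1 CPM of Has2 in CON at 2 weeks, beside 77.7 ± 24.4 CPM in IVD cells.

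Cd44 was above the IVD level in the myeloid cells of each of the 15 libraries with at least 20 such cells, at 219 to 722% of the IVD level with a median of 345%. It averaged 688 ± 363 CPM in CON and 675 ± 351 CPM in LDP myeloid cells at 2 weeks (n = 4), and 41.9 ± 18.3% and 41.2 ± 16.8% of these cells had a UMI of it after thinning. Lymphoid cells had a median of 5.13% of the IVD level. Myeloid cells had 341 to 799 CPM in CON and 471 to 703 CPM in LDP at 8 weeks, a difference of 0.39 on the log2 scale (exact permutation p = 0.286).

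Versican in myeloid cells went the opposite way from IVD cells at 8 weeks, a comparison added after the values had been seen. Myeloid cells of CON rats 5 to 8 had 248, 96.1, 17.1 and 260 CPM of Vcan, in 147, 124, 35 and 31 cells, and those of LDP had 3562, 1296, 2274 and 880 CPM, in 47, 34, 141 and 19 cells. The groups lay far apart, with the LDP level above that of IVD cells in the same library in 4 of 4. The log2 difference was 4.08, and 3.11 to 4.85 without each rat in turn, given as a description with no test. The share of myeloid cells with a UMI of Vcan was 5.44 to 16.1% in CON and 14.7 to 51.1% in LDP. At 2 weeks the levels were 58.3 to 361 CPM in CON and 37.6 to 970 CPM in LDP (0.40, exact permutation p = 0.771). Myeloid genes moved too at 8 weeks: Cd14 was at 133 to 435 CPM in CON and 773 to 1509 CPM in LDP, Cd68 at 71.7 to 256 and 271 to 379 CPM and Tyrobp at 703 to 1066 and 1555 to 2096 CPM (exact permutation p = 0.0286 each, the smallest possible, among 18 unadjusted comparisons in this class), while Lyz2 (p = 0.143), Mrc1 (p = 0.857), C1qa (p = 0.886) and Laptm5 (p = 0.2) were not separated by the same exact permutation test. The Lyz2 level at 8 weeks was 1397 to 7228 CPM in CON and 4394 to 6351 CPM in LDP. Without thinning, 36.7 to 90.3% of CON and 94.1 to 100% of LDP myeloid cells held a UMI of Lyz2, with no overlap. The classes were drawn separately for CON and LDP, and the part of a different mix of myeloid cells in the Vcan level was not tested. In all cells of the library, where IVD cells dominate, the limma difference of Vcan was -0.79 at 2 weeks and -0.70 at 8 weeks (adjusted p = 0.451 and 0.401), where 0 and 0.00848% of genes were called, the latter higher.

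**Figure D5:**
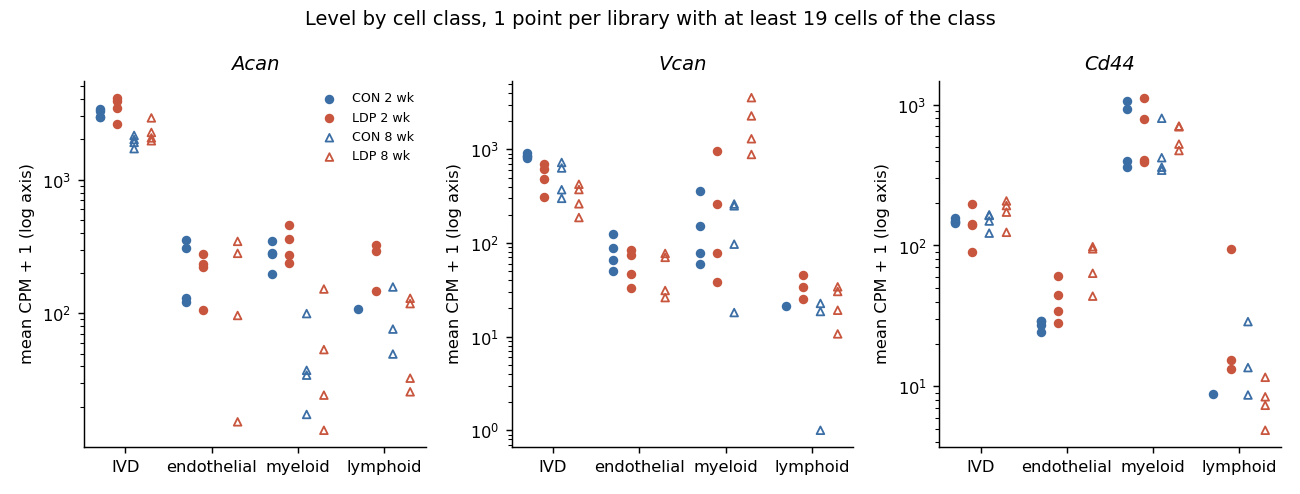
Mean CPM + 1 of Acan, Vcan and Cd44 (log axis) by cell class, with 1 point per library that has at least 19 cells of the class and a symbol for each group. Of the classes shown, myeloid cells hold the highest Cd44 levels, at 219 to 722% of the IVD level, and the Vcan points of LDP myeloid cells at 8 weeks, at 880 to 3562 CPM, stand above the CON points at 17.1 to 260 CPM.

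Between the times, unpunctured discs had less Acan, Vcan and Has2 in IVD cells at 8 than at 2 weeks. Acan averaged 3132 ± 214 CPM at 2 weeks and 1936 ± 184 at 8 weeks (SD, n = 4), with no overlap, a limma difference of -0.70 (SE 0.11, adjusted p = 0.0031) that held in all 14 alternatives. Vcan fell by 0.84 on the log2 scale (adjusted p = 0.037) and Has2 by 0.70 (from 77.7 ± 24.4 to 45.6 ± 3.65 CPM, adjusted p = 0.0486). That is 3 of 6 genes lower, where limma called 18.9% of 11218 genes, 11.5% lower and 7.33% higher. The call for Vcan was lost by edgeR (adjusted p = 0.0887) and without 6 of the 8 libraries in turn (the highest adjusted p was 0.0934), and that for Has2 without 7 of 8 (up to 0.125). Hapln1 differed by -0.20, Hapln3 by -0.33 and Cd44 by -0.002, and the last turned to 0.06 by edgeR. In punctured discs Has2 fell by 1.12 (from 62.8 ± 9.46 to 29.3 ± 10.0 CPM, limma adjusted p = 0.0299, up to 0.089 without 1 library, with the call lost in 6 of 8 such fits), as 1 of 6 genes where 4.32% were called, 3.25% lower and 1.07% higher. Acan differed there by -0.61 (adjusted p = 0.0904), Vcan by -0.77 (adjusted p = 0.167) and Cd44 by 0.32 (adjusted p = 0.476). Measures of other cells moved between the times as well. In CON, 3 of 6 endothelial markers were called lower (Cdh5 -2.38, Emcn -2.25 and Plvap -2.21), as were 5 of 7 outer annulus genes (Col1a1 at -2.26), 1 of 5 pericyte markers (Pdgfrb, -0.58) and 2 of 6 disc reference genes (Col2a1 at -2.04), while the dissociation gene Hspa1a (0.87) was called higher. In LDP, 3 of 7 outer annulus genes, 3 of 5 pericyte markers and 3 of 6 disc reference genes were called lower and the dissociation genes Egr1 (1.99) and Junb (1.09) higher. The median ribosomal share of CON IVD cells was 10.3 to 13.0% at 2 weeks and 13.2 to 14.5% at 8 weeks. The part of these measures in the differences by time was not tested, and age, rat and library preparation cannot be told apart from time.

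Genes that build, sulfate and break down the same aggregate were counted in the limma fit over both times, by lists chosen with earlier results of these data known. Of the proteases that cut aggrecan and versican and their inhibitor Timp3, 6 of 8 genes were tested, 2 were called lower and none higher, where 5.72% of all genes were called lower. All 6 estimates were negative with a median of -0.80, beside -0.12 over all genes. Adamts5, an aggrecanase, had 5.42, 8.92, 5.96 and 7.15 CPM in CON and 4.68, 6.30, 4.31 and 3.31 CPM in LDP IVD cells at 2 weeks, and 4.74, 6.86, 7.05 and 4.66 against 3.14, 2.22, 3.27 and 2.08 CPM at 8 weeks. Each rat had less after puncture, as 8.30% of all genes had (limma -0.69, adjusted p = 0.015), and the call held in all 15 alternatives. Adamts1, which cuts versican as well, fell by 1.09 (adjusted p = 0.0281; up to 0.0749 without 1 rat, with the call lost in 5 of 8 such fits). Endothelial markers were called lower in the same fit, as given below with Lyve1, and their part in the Adamts5 and Adamts1 levels was not tested.

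Adamts4, the other main aggrecanase, was called in OAF cells. In OAF cells at 2 weeks it had 96.2, 70.2, 89.5 and 72.5 CPM in CON and 248, 281, 246 and 232 CPM in LDP, and no value overlapped. It rose by 1.62 on the log2 scale there (limma adjusted p = 0.0007, against 1.27% of genes called higher), in all 11 alternatives. NP cells had 4.85 to 11.9 CPM in CON and 3.38 to 8.53 CPM in LDP, and IAF cells 13.0 to 160 and 3.85 to 16.3 CPM, with the lower outer annulus, endothelial and pericyte markers given above for IAF cells; the difference of the effects between zones was not tested. In IVD cells at 2 weeks Adamts4 had 23.7, 17.8, 98.6 and 17.8 CPM in CON and 19, 56.8, 27.3 and 38.1 CPM in LDP. The limma difference there was 0.14 (adjusted p = 0.918). In that fit the pericyte and smooth muscle markers Myh11 (1.24), Tagln (0.87), Acta2 (0.85) and Rgs5 (0.46) had positive estimates. Pdgfrb had a negative one (-0.25), and none was called. In IVD cells at 8 weeks Adamts4 had 34.0, 39.0, 25.4 and 21.2 CPM in CON and 2.10, 3.94, 12.8 and 5.00 CPM in LDP, and over both times it was not called (-1.10, adjusted p = 0.0866). In LDP libraries it was lower at 8 than at 2 weeks by 2.50 on the log2 scale (limma adjusted p = 0.0175, up to 0.0546 without 1 library, with the call lost in 2 of 8 such fits). In that fit the pericyte and smooth muscle markers Rgs5 (-3.06), Myh11 (-2.83) and Pdgfrb (-1.15) were called lower too, as were the outer annulus genes Tnmd (-3.73), Col1a1 (-2.83) and Fibin (-0.76). Between LDP and CON at 8 weeks Rgs5 differed by -2.64 and Adamts4 by -2.34, neither called (adjusted p = 0.0608 and 0.0856). The part of these markers in the Adamts4 levels was not tested.

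Of 20 hyaluronan receptors, binding proteins and hyaluronidases, 10 were tested and 2 were called lower over both times, where 5.72% of all genes were. Lyve1, the hyaluronan receptor of lymphatic endothelium, fell by 0.88 (adjusted p = 0.0252; up to 0.0663 without 1 rat, with the call lost in 3 of 8 such fits) from 2.25 to 6.09 CPM in CON to 0.819 to 2.94 CPM in LDP, while endothelial markers in these cells were called lower in 4 of 5 tested genes, whose part in it was not tested. Cemip, a hyaluronan-degrading protein, fell by 0.64 (adjusted p = 0.0373; 0.0637 by edgeR, and up to 0.0811 without 1 rat, with the call lost in 6 of 8 such fits). Itih3, whose heavy chain is bound to hyaluronan, rose in OAF cells, from 0 to 0.226 CPM in CON to 1.85 to 4.20 CPM in LDP (adjusted p = 0.0183; up to 0.11 without 1 rat, with the call lost in 3 of 4 such fits). Hyaluronan synthases Has1 and Has3 were not called over both times (-0.62, adjusted p = 0.136 and -0.31, adjusted p = 0.11).

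Genes of the chondroitin sulfate chain were mostly not called after puncture. Among 15 genes of chain synthesis 1 was called, Ust, an uronyl sulfotransferase (-0.47, adjusted p = 0.0471), where 7.80% of all genes were called. The call for Ust was lost by edgeR (adjusted p = 0.0997) and without each rat in turn (0.0506 to 0.117). In that list 12 estimates were negative with a median of -0.21. Of 11 tested sulfotransferases and sulfate suppliers 0 were called, with Chst3 nearest (-0.37, adjusted p = 0.0654), and of 10 tested genes for UDP-sugars 0 were called, with Ugdh nearest (-0.40, adjusted p = 0.0652). Among 9 lysosomal enzymes Galns was called (-0.39, adjusted p = 0.0372), again beside 7.80% of all genes, and all 9 estimates were negative with a median of -0.25. That call was lost by edgeR (adjusted p = 0.162) and in 7 of 8 fits without 1 rat (up to 0.0956). Of 6 disc reference genes 0 were called, with Sox9 at -0.33 (adjusted p = 0.0687) and Col2a1 at -0.47 (adjusted p = 0.208).

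In unpunctured discs the same lists held calls in both directions between the times. Of the 15 chain synthesis genes, 10 were lower at 8 weeks and 0 higher, beside 11.5% of all genes called lower, among them Xylt1, which starts the chain (-0.75, limma adjusted p = 0.00172), and B4galt7 (-0.71, adjusted p = 0.00453). Of these 10 calls 5 (Xylt1, B4galt7, Chsy3, Chpf and Dse) held without each library in turn, and the other 5 were lost without at least 1 library, Dsel in 7 of 8 such fits, Chsy1 and Ust in 6, Chpf2 in 5 and Csgalnact1 in 2. Has1 rose by 1.02 (adjusted p = 0.00696) and Has3 by 0.64 (adjusted p = 0.0129), opposite to Has2, and both calls held without each library in turn. Of 9 lysosomal genes 4 were lower, with Glb1 at -0.79 (adjusted p = 0.00149). The calls for Glb1 and Hexa held without each library in turn, and those for Arsb and Ids were lost in 1 and 4 of 8 such fits. Of 11 tested sulfotransferases and sulfate suppliers, 3 were lower, namely Slc26a2 (-0.72), Chst12 (-0.47) and Papss2 (-0.39), and 1 was higher, Impad1 (0.48, adjusted p = 0.00753). The call for Papss2 was lost in 6 of 8 fits without 1 library (up to 0.0916) and that for Chst12 in 4 (up to 0.0848). Of 10 tested hyaluronan receptors, binding proteins and degrading enzymes, Hyal1 (-0.70) and Cemip2 (-0.60) were lower and Cemip (0.57, adjusted p = 0.00975) was higher; the Cemip2 call was lost in 6 of 8 such fits (up to 0.0916). Of 10 tested UDP-sugar genes 2 were lower, Uap1l1 (-0.58), lost in 2 of 8 such fits (up to 0.0585), and Ugp2 (-0.52), lost in 6 (up to 0.113). Of 6 tested proteases and Timp3 1 was lower, Adamts1 (-0.91).

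For each gene the 3 others with the most similar pattern were found, as a description. Over the 24 profiles of 8 libraries by 3 zones at 2 weeks, Acan was most like Meltf (Pearson r = 0.995), Krt13 (0.993) and Me1 (0.991), and Hapln1 most like Wif1 (0.979), Eno1 and Ninj1 (0.977 each). Vcan was most like Dennd4c (0.869), Hapln3 like LOC108351137 (0.968), Has2 like Sesn1 (0.864) and Cd44 like Stat3 (0.872). Acan and Hapln1 had r = 0.955 (Spearman rho = 0.678) over these profiles, which share libraries and zones. Over the 16 IVD library means with the group mean taken out, the same pair had r = 0.112 (Spearman rho = 0.188), and r = 0.421 without LDP rat 4. In the same 16 means Vcan was most like Masp1 (0.907), Akap13 (0.905) and P4ha1 (0.901), a collagen prolyl hydroxylase subunit, and Acan and Vcan had r = 0.683 (Spearman rho = 0.729, r = 0.588 without LDP rat 4). Hapln3 and Cd44 ran against each other (r = -0.926, Spearman rho = -0.806, r = -0.885 without LDP rat 4). In gene order of the GRCr8 rat assembly by RefSeq, Acan lies next to Hapln3 on chromosome 1 and Hapln1 next to Vcan on chromosome 2.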

How the data were processed

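Cells were freed with pronase and collagenase, read by 10x Genomics 3′ sequencing and processed by the authors in Partek Flow on genome build rn6; the aligner, doublet and ambient RNA handling are not given in the sources used here. The authors kept cells with under 10% mitochondrial features and clustered each group apart by K-means. The deposited gene values are log2(CPM + 1) per cell; the deposited cell totals are expected counts, and the deposited mitochondrial and ribosomal values are percent of counts. Subclusters carry numbers in the files, and the names NP, IAF and OAF were given here by matching cell numbers and markers to the study. Barcodes equalled its stated cell numbers except in LDP at 8 weeks, where slightly fewer were found. Whole reads within 0.02 were recovered for 99.38 to 99.48% of values above 0.

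The mean CPM per library and class was tested as log2(CPM + 1) with limma 3.58.1 (trend, rat as block, R 4.3.3) on genes with a mean of at least 1 CPM, Benjamini-Hochberg adjusted over all genes tested with a threshold of 0.05, two-sided. Exact permutation tests were two-sided. Alternatives were edgeR 4.0.16 (745 genes called over both times) and DESeq2 1.42.0 on summed recovered counts, other pseudocounts, no filter, deeper cells, no block and leaving out each rat. Tests were checked on simulated data. Members and lists were chosen with earlier results of these data known; named are the 6 members, list genes past the threshold (else the nearest by adjusted p) and, for each member, the most similar genes. Same-numbered libraries were taken to come from the same rat, since the titles carry a number but name no rat. Counts by rat and the block rest on this. The deviations of such pairs correlated at -0.185 to 0.465, and only 5 of 8 correlated best with their own number.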

Additional observations from a re-analysis of the deposited data

Results flagged for a closer look

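At 8 weeks the difference of Vcan between punctured and unpunctured discs ran in opposite directions in 2 cell classes. In myeloid cells it was 4.08 on the log2 scale, with every rat higher after puncture by 1.76 to 6.98, while in IVD cells every rat was lower, by -0.50 to -0.77; the difference between the classes was not tested. The myeloid values rest on 19 to 147 cells per library.

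In CON IVD cells at 8 weeks, Has2 stood at 51.0 CPM in rat 5, away from the other 3 libraries at 43.1 to 44.2 CPM, with a gap of 0.862 of the group's range, past Dixon's critical value for 4 samples. It was 1 of 60 groups so examined, where chance gives about 1 in 20.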

How the results depend on the processing

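Of 912 values of the 6 genes under other settings, 852 kept direction and side of the threshold, 23 lost a call, 10 gained one and 27 turned in sign, none of these a call. Of 518 values of called list genes, 393 kept the call. The replicate block changed no call of a member: without it Vcan over both times had an adjusted p of 0.0486 (limma), and equal weights for NP, IAF and OAF gave -0.76 for Vcan at 2 weeks. The cause of the changes below was not tested.

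Genes called in IVD cells at 2 weeks (20) became 2 with a pseudocount of 10 CPM, 12 by edgeR, 262 by DESeq2, 5 without the replicate block and 0 to 7 without 1 rat. At 8 weeks (30) they became 80 with a pseudocount of 0.1 CPM, 554 by DESeq2 and 1 to 567 without 1 rat. Over both times (870) they became 1797 by DESeq2 and 151 to 787 without 1 rat, the fewest without rat 3. For the effect at 8 minus 2 weeks (0) there were 2 with 0.1 CPM, 13 by DESeq2, 3 without the block and 0 to 13 without 1 rat. In all cells at 2 weeks (0) DESeq2 called 138, and 0 to 1 were called without 1 rat; at 8 weeks (1) edgeR called 2, DESeq2 210, the fit without the block 3, and 0 to 1 were called without 1 rat. NP cells (0) had 1 by edgeR and 208 by DESeq2; IAF cells (0) had 1 by edgeR, 200 by DESeq2, 3 without the block and 0 to 26 without 1 rat; OAF cells (163) had 104 to 272 without 1 rat. Between times, CON had 1108 to 2425 genes (2115 in full) and LDP 154 to 1506 (475 in full, 1435 by DESeq2) without 1 library.

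Sign changes among uncalled values were these. Hapln1 turned at 8 weeks by DESeq2 (0.001), over both times by edgeR (0.054) and DESeq2 (0.070) and without 1 rat (-0.121 to 0.023), and without 1 rat at 2 weeks in IVD (-0.116 to 0.173), all (-0.125 to 0.132), NP (-0.197 to 0.185), IAF (-0.056 to 0.274) and OAF cells (-0.209 to 0.026). Cd44 turned without 1 rat at 2 weeks in IVD (-0.268 to 0.074) and NP cells (-0.315 to 0.089) and over both times (-0.035 to 0.136), and between times in CON by edgeR (0.058), by DESeq2 (0.068), in cells with at least 1000 UMIs (0.001) and without 1 library (-0.051 to 0.093). Acan turned without 1 rat in all cells at 2 weeks (-0.102 to 0.285) and in OAF cells (-0.007 to 0.442). Has2 in OAF cells turned by edgeR (0.098), by DESeq2 (0.107) and without 1 rat (-0.198 to 0.002). For the effect at 8 minus 2 weeks, Acan (-0.067 to 0.175), Vcan (-0.162 to 0.246) and Hapln3 (-0.361 to 0.296) turned without 1 rat. Shares of cells turned for Hapln1 at 8 weeks unthinned (4.66 points) and at 2000 UMIs (0.31), for Cd44 at 2 weeks unthinned (0.018), and at 2 weeks without 1 rat for Acan (-0.634 to 5.55), Hapln1 (-2.71 to 2.48) and Cd44 (-2.11 to 0.578). Vcan in myeloid cells at 2 weeks ranged from -0.357 to 1.607.

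With 4 libraries against 4, exact tests cannot go below 0.02857, and leaving out 1 rat raises that floor to 0.1, so the share and myeloid results could not stay past 0.05 there. With sign flips of 4 rats the smallest p is 0.125. Hapln3 and Has2 are sparse, with on average 6.58 to 13.6% and 15.0 to 28.9% of IVD cells in a group holding a UMI.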

Other observations

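In cells that the authors put in no class, the levels of Has2 and Cd44 spanned a wide range. Has2 averaged 108 ± 41.1 CPM there in CON at 2 weeks, 34.9 ± 11.9 CPM in LDP at 2 weeks, 7.21 ± 3.79 CPM in CON at 8 weeks and 4.33 ± 6.84 CPM in LDP at 8 weeks (SD, n = 4). Cd44 averaged 354 ± 29.0, 106 ± 71.8, 83.7 ± 69.7 and 498 ± 344 CPM in the same order. These clusters were drawn apart in each group, hold 799 to 1805 cells per group, and were not compared by a test. Lyz2, a myeloid gene, stood at 1439 ± 1877 CPM in such cells of LDP at 8 weeks and at 53.2 ± 103 CPM in CON at 2 weeks.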
